A study of Drosophila melanogaster with 6 samples.

Results

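The genes described here are 52 genes of mitosis and chromosome segregation, named as a list and looked up by FlyBase gene ID among the 17807 genes measured in whole larval lymph glands of Drosophila melanogaster. All 52 were found. The lymph gland is the blood-forming organ of the larva, and its progenitors divide and give rise to phagocytic plasmatocytes and melanizing crystal cells. RNA was sequenced from 6 libraries, 3 from each of 2 experimenters, called set B and set A here. Each library was made from larvae of the third instar stage, with the genotype given as wild-type and the background as BL-30140 crossed to w1118, raised at 25 °C, so the larvae of both sets share genotype, tissue and stage and the sets differ in the labels only by the experimenter. The sex of the larvae and the number of glands in a library are not given in the labels, and p-values measure the spread between libraries, which may be partly technical.

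A cell enters mitosis when the kinase Cdk1, bound to a mitotic cyclin, loses its inhibitory phosphates through the phosphatase encoded by stg. Condensin then compacts the chromosomes, kinetochores on the centromeres attach them to the spindle, and a checkpoint holds back the anaphase-promoting complex until every kinetochore is attached. That complex destroys securin and the cyclins, separase opens the cohesin rings, and a central spindle guides the cleavage furrow. In Drosophila larvae many tissues, among them the salivary gland, the fat body and the steroid-producing cells of the ring gland, grow by replicating DNA without dividing, whereas hemocyte progenitors and brain neuroblasts divide.

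The libraries held between 18689689 and 26003822 expected counts. Hemocyte markers were present in every library, with He, srp and Pvr summing to 2125, 2110 and 2258 TPM in set B replicates 1, 2 and 3 and to 2346, 2279 and 2615 TPM in those of set A. Several libraries also stood apart in markers of other tissues. Set B replicate 2 and set A replicate 1 had the highest ring gland sums, set B replicate 2 had 5319 TPM of salivary gland genes against 13.9 to 79.1 TPM in the others, and set A replicate 3 had 687 TPM of fat body genes against 5.97 to 19.4 TPM elsewhere. Neuroblast genes (mira, dpn, ase and wor) summed to 23.6 TPM in set B replicate 1 and to between 0 and 1.37 TPM in the others, with wor at 5.01 TPM in set B replicate 1 and listed at 0 elsewhere. Neural genes summed to 24.8 TPM and imaginal disc genes to 5.46 TPM in that library, against at most 4.62 and 2.95 TPM elsewhere, and muscle genes to between 241 and 1312 TPM over the 6 libraries. None of the germ line genes vas, nos, bam and aub reached a TPM of 1 in every library, and their sum stayed between 0.94 and 1.43 TPM.

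All 52 mitosis genes were transcribed in every library. Each reached a TPM of at least 1 in all 6, as did 41.4% of all genes in the tables, and 49 of them reached 5 TPM and 38 reached 10 TPM in all 6. TPM, a relative transcript level scaled to the same total in each library, is corrected for transcript length, so it can be compared between genes. Their mean level ran from 4.60 TPM for thr to 76.8 TPM for Bub3, with a median of 21.0 TPM, against a median of 22.7 TPM over the 7371 genes detected in all libraries. The middle gene of the list lay at the 47.1th percentile of detected genes, and none averaged 100 TPM. Together they summed to 1537, 1129 and 1509 TPM in set B replicates 1, 2 and 3, and to 1107, 1433 and 1623 TPM in those of set A. The lowest sums were those of set A replicate 1 and set B replicate 2, so each set held a library with a low sum. In bulk tissue, fewer dividing cells and less of these transcripts per dividing cell cannot be told apart.

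**Figure D1:**
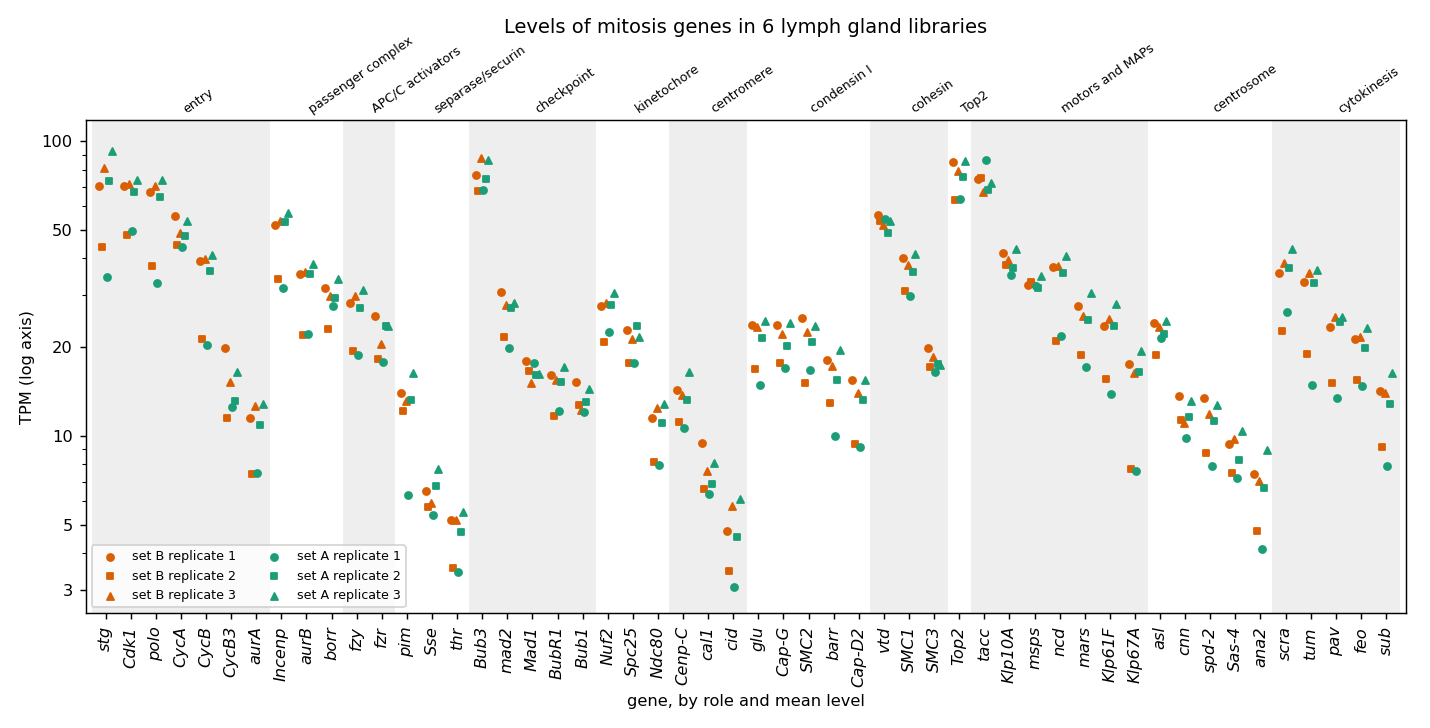
TPM (log axis) of each of the 52 genes in the 6 libraries, grouped by role and ordered by mean level within a role; colour marks the set and shape the replicate. Levels run from about 3 TPM for cid in set A replicate 1 to 92.2 TPM for stg in set A replicate 3, and in most genes set B replicate 2 and set A replicate 1 are the 2 lowest points.

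The genes that drive entry into mitosis included some of the highest of the list. stg (FBgn0003525, chromosome 3R at 29251826 to 29255800, minus strand), whose product is the Cdc25 phosphatase that activates Cdk1, had 70.2, 43.6 and 81.2 TPM in set B replicates 1, 2 and 3 and 34.7, 73.3 and 92.2 TPM in those of set A. Its highest library was 2.65-fold above its lowest, the widest range of the 52, and the sets overlapped. Cdk1, the kinase itself, averaged 63.3 ± 11.5 TPM (SD, n = 6 libraries, as for the other means). The Polo kinase gene polo averaged 57.7 ± 17.7 TPM. Among the mitotic cyclins the order was CycA, at 48.9 ± 4.79 TPM, then CycB at 33.0 ± 9.57 TPM and CycB3 at 14.8 ± 3.09 TPM. The 6 values of CycA all lay above those of CycB, and those of CycB all above those of CycB3. CycA also varied least of the cyclins, by 1.27-fold between libraries against 2.02-fold for CycB. The lowest gene of the role was aurA (FBgn0000147, 3R at 11963124 to 11964826), the centrosomal Aurora kinase, with 11.5, 7.44 and 12.6 TPM in set B and 7.46, 10.9 and 12.9 TPM in set A. The ranges of stg, Cdk1 and polo overlapped. Within libraries stg was above polo in all 6, with a ratio between 1.04 and 1.25, whereas stg was above Cdk1 in 4 of 6 and Cdk1 above polo in 5 of 6.

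The chromosomal passenger complex corrects wrong attachments and later works at the midzone. Its scaffold gene Incenp (FBgn0260991, 2R at 7278467 to 7281795) had 51.95, 34.2 and 53.4 TPM in set B and 31.8, 53.0 and 57.2 TPM in set A. Its kinase gene aurB had a mean of 31.5 ± 7.35 TPM, and followed Incenp closely from library to library. The ratio of Incenp to aurB stayed between 1.43 and 1.55 in the 6 libraries, a CV of 2.65%, although each gene alone had a CV of 23.3%. Counting error alone gives a CV of 4.59% for this ratio, which was the least variable of the 98 ratios between genes of the same role. borr, which encodes Borealin, was the lowest, with 31.7, 23.1 and 29.8 TPM in set B and 27.6, 29.4 and 33.98 TPM in set A. The ranges of aurB and borr overlapped, and aurB was the higher in 4 of 6 libraries. borr did not follow the other genes of the complex as closely. The ratio of Incenp to borr had a CV of 15.4% and that of aurB to borr 14.8%, against 12.75% for borr alone.

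The anaphase-promoting complex is switched on by fzy, the Drosophila Cdc20, in mitosis and by fzr, the Drosophila Cdh1, at mitotic exit, in the next gap phase and in cells that stop dividing and endocycle. fzy had 28.3, 19.4 and 29.7 TPM in set B and 18.8, 27.2 and 31.1 TPM in set A. fzr had 25.6, 18.2 and 20.5 TPM in set B and 17.9, 23.6 and 23.6 TPM in set A. The ratio of fzy to fzr was between 1.05 and 1.45, above 1 in all 6 libraries, while the ranges of the genes overlapped. Securin and the separase genes were lower. The securin gene pim (FBgn0003087, 2L at 10362989 to 10364092) had 13.9, 12.1 and 13.2 TPM in set B and 6.31, 13.3 and 16.4 TPM in set A. Set A replicate 1 was the lowest of these, and rested on 113 counts. The separase gene Sse averaged 6.35 ± 0.854 TPM. thr, which encodes the partner of separase, was the lowest of all 52, with 5.17, 3.55 and 5.20 TPM in set B and 3.46, 4.72 and 5.52 TPM in set A.

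Among the checkpoint genes 1 stood well above the rest. Bub3 (FBgn0025457, 3R at 29674007 to 29675421), which brings checkpoint proteins to kinetochores, had 76.5, 67.7 and 87.4 TPM in set B and 68.2, 74.4 and 86.4 TPM in set A. Bub1, a kinetochore kinase gene, had 15.2, 12.8 and 12.2 TPM in set B and 12.1, 13.0 and 14.4 TPM in set A. The other checkpoint genes lay between them, with mad2 at 25.9 ± 4.21 TPM, Mad1 at 16.6 ± 1.05 TPM and BubR1 at 14.7 ± 2.20 TPM. All 6 values of Bub3 were above all those of mad2, with a ratio of means of 2.96, and the ranges of Mad1, BubR1 and Bub1 overlapped in turn. Bub3 overlaps ppk19 on the opposite strand.

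Kinetochore and centromere genes ran from just above the median of the list to near its low end. In the Ndc80 complex, which binds microtubules, Nuf2 had 27.6, 20.8 and 28.1 TPM in set B and 22.5, 27.8 and 30.4 TPM in set A. Ndc80 itself had 11.5, 8.17 and 12.5 TPM in set B and 7.96, 11.1 and 12.8 TPM in set A. Spc25 lay between, at 20.8 ± 2.54 TPM, so the transcripts of these partners differed by 2.46-fold in mean level. At the centromere, Cenp-C, which links the centromere to the kinetochore, had 14.3, 11.1 and 13.8 TPM in set B and 10.6, 13.3 and 16.4 TPM in set A. The centromeric histone gene cid (FBgn0040477, 2R at 13485617 to 13486631) had 4.77, 3.48 and 5.78 TPM in set B and 3.08, 4.53 and 6.11 TPM in set A, and rested on 48 to 107 counts. cal1, whose product loads the Cid histone, was at 7.50 ± 1.17 TPM and overlaps cher on the opposite strand.

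The subunits of condensin I were more even. The ATPase genes glu (SMC4) and SMC2 were at 20.9 ± 4.03 and 20.6 ± 3.93 TPM, and Cap-G was at 20.8 ± 3.08 TPM. Per library, glu had 23.8, 16.9 and 23.5 TPM in set B and 14.9, 21.5 and 24.6 TPM in set A. Neighbours in this order were indistinguishable, glu being above Cap-G in 3 of 6 libraries and Cap-G above SMC2 in 3 of 6. The kleisin gene barr was lower at 15.6 ± 3.55 TPM. Cap-D2 was the lowest, with 15.5, 9.37 and 14.0 TPM in set B and 9.19, 13.2 and 15.5 TPM in set A. Cap-D2 was below SMC2 in all 6 libraries, with a ratio of SMC2 to Cap-D2 between 1.52 and 1.82.

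Cohesin, which holds sister chromatids together and also acts on transcription between divisions, was uneven in level, and its genes differed in how much they varied between libraries. Its kleisin gene vtd, the Drosophila Rad21, had 56.0, 53.5 and 52.0 TPM in set B and 54.5, 48.8 and 53.6 TPM in set A. SMC1 averaged 36.0 ± 4.72 TPM, with a CV of 13.1% over libraries against 4.71% for vtd and 6.67% for SMC3. SMC1 and SMC3, unlike vtd, had their 2 lowest values in set A replicate 1 and set B replicate 2. SMC3 had 19.8, 17.2 and 18.6 TPM in set B and 16.5, 17.5 and 17.3 TPM in set A. The 3 genes did not overlap in any pair of neighbours, and SMC1 was 1.803-fold to 2.38-fold above SMC3 within libraries. Top2 (FBgn0284220, 2L at 19447365 to 19453490), the topoisomerase that untangles sister chromatids and also serves replication and transcription, had 85.2, 62.9 and 79.0 TPM in set B and 63.7, 75.5 and 85.5 TPM in set A. It carried the most counts of the list, 4904 to 8316 in a library.

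Spindle motors and microtubule-binding proteins held both the steadiest and the most variable members. tacc (FBgn0026620, 3R at 4733654 to 4749056), which anchors microtubule growth factors at the centrosome, had 74.2, 74.9 and 67.0 TPM in set B and 86.1, 68.3 and 72.2 TPM in set A. By TPM it was the only member whose highest library was set A replicate 1. TPM divides by the assigned transcript length, which for tacc was shortest in that library. Without the length, tacc had 160.3 CPM (counts scaled to the same library total) in set B replicate 1 and 160.2 in set A replicate 1, and with TMM factors 152.1 CPM in set B replicate 1 and 159.4 CPM in set A replicate 1. msps, the microtubule polymerase gene that works with tacc, averaged 33.0 ± 1.13 TPM. Klp67A (FBgn0004379, 3L at 9362636 to 9367046), a kinesin that controls spindle length, had 17.5, 7.74 and 16.3 TPM in set B and 7.61, 16.5 and 19.4 TPM in set A. The other motors were the depolymerizing kinesin Klp10A at 39.1 ± 2.88 TPM, the minus-end motor ncd at 32.4 ± 8.69 TPM and the bipolar kinesin Klp61F at 21.6 ± 5.59 TPM. mars, the Drosophila HURP, was at 24.0 ± 5.17 TPM. ncd, mars, msps, Klp61F, Klp67A and tacc overlap genes on the opposite strand.

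Of the 5 genes of the centrosome and centriole, all but asl averaged below 12 TPM. asl, needed to start centriole duplication, had 24.2, 18.8 and 23.4 TPM in set B and 21.4, 22.1 and 24.5 TPM in set A. cnn and spd-2, which build the matrix around the centrioles, were at 11.8 ± 1.41 and 10.98 ± 2.21 TPM. Sas-4 was at 8.75 ± 1.30 TPM. The centriole duplication gene ana2 was the lowest of them, with 7.44, 4.76 and 7.01 TPM in set B and 4.12, 6.65 and 8.94 TPM in set A, on 98 to 194 counts.

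At the end of division, scra, which encodes the furrow scaffold anillin, had 35.8, 22.6 and 38.6 TPM in set B and 26.3, 37.0 and 42.9 TPM in set A. Centralspindlin is made from tum, at 28.7 ± 9.30 TPM, and pav, at 21.1 ± 5.35 TPM. tum had 33.2, 18.9 and 35.7 TPM in set B and 14.9, 33.0 and 36.4 TPM in set A. feo, which bundles midzone microtubules, was at 19.4 ± 3.46 TPM. sub, a kinesin gene known for the female meiotic spindle and also active in mitosis, was the lowest, with 14.2, 9.18 and 14.0 TPM in set B and 7.88, 12.8 and 16.3 TPM in set A. Across all roles, 28 of 39 neighbouring pairs kept the same order in all 6 libraries, and the 6 values of the pair did not overlap for 12. In the authors' 95% credibility intervals of TPM, 14 of the 39 pairs were apart in all 6 libraries.

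Most of the 52 genes were low in the same libraries. On a log2(TPM + 1) scale, the median deviation of the members from their own means was 0.17, -0.28 and 0.13 in set B replicates 1, 2 and 3, and -0.32, 0.06 and 0.24 in those of set A. Over the 7371 detected genes the same medians lay between -0.06 and 0.04. In 45 of the 52 genes the 2 lowest libraries were set A replicate 1 and set B replicate 2, which is the case for 21.8% of detected genes. The highest library was set A replicate 3 for 36 of the 52, against 23.0% of detected genes, and set B replicate 1 for 12 of the 52, against 20.4%, so the second count is near the background. Because these libraries were singled out after the values were seen, the counts are a description with no test.

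**Figure D2:**
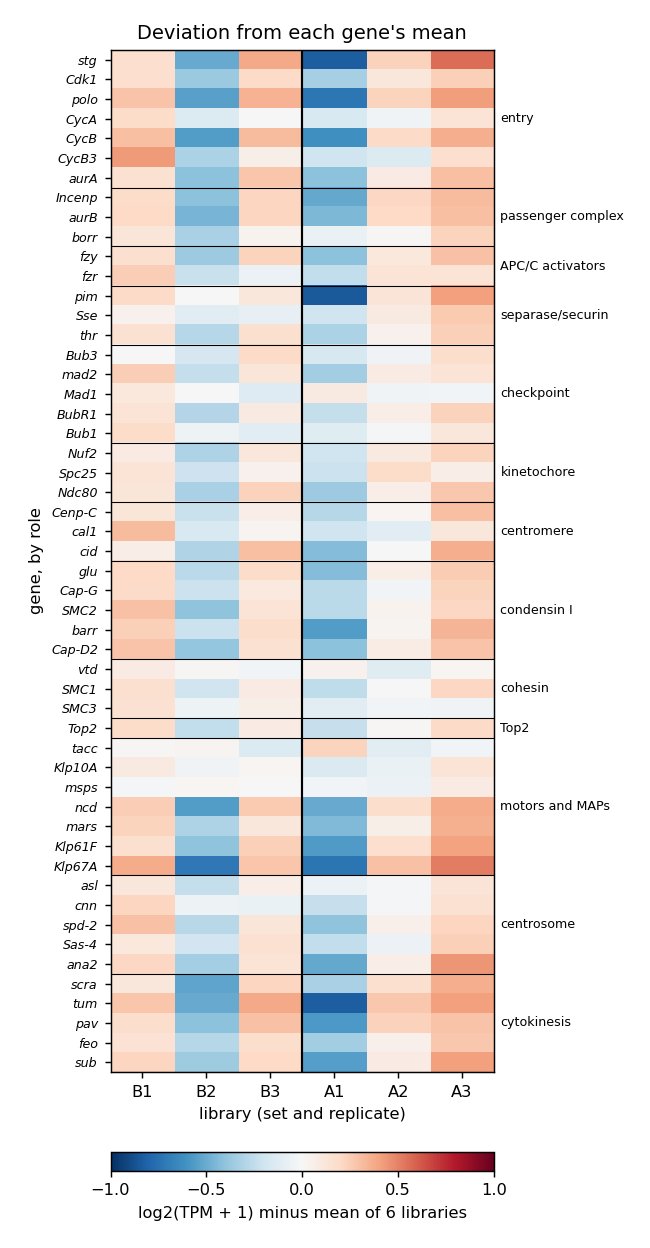
Deviation of each gene from its mean over the 6 libraries, as log2(TPM + 1), with set B in the left 3 columns and set A in the right 3; blue is below and red above the mean. The columns of set B replicate 2 and set A replicate 1 are blue for most of the 52 genes, with the rows of vtd, msps, tacc and Mad1 nearly white or reversed.

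The 7 genes that did not share this pattern were tacc, vtd, Mad1, Klp10A, msps, Bub1 and cnn. For tacc, vtd and Mad1 the 2 lowest libraries by TPM were set A replicate 2 and set B replicate 3. For tacc this order depends on the assigned length. With TMM factors its 2 lowest were set B replicate 2, at 148.5 CPM, and set A replicate 2, at 149 CPM. Several of them have known work outside division, vtd in transcription and tacc, msps and Klp10A on interphase microtubules. SMC1, SMC3 and Top2, which also have work outside division, did share the pattern. Whether such work bears on the pattern was not tested. By role, the cytokinesis genes had the lowest median in set A replicate 1, at -0.55, and the cohesin genes had one of -0.10. In set B replicate 2 the passenger complex, cytokinesis and entry genes each had a median of -0.41, against -0.05 for cohesin.

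The size of the spread differed from gene to gene. The CV of TPM over the 6 libraries was highest for Klp67A, at 36.3%, stg, at 33.7%, and tum, at 32.4%. It was lowest for msps, at 3.42%, vtd, at 4.71%, and Mad1, at 6.34%. Counting error alone would give 3.67% for Klp67A, 1.79% for stg and 2.89% for tum, so their spread was far beyond it, and 1.48%, 2.14% and 3.71% for msps, vtd and Mad1. Of the 52 genes, 51 had a CV over 2 times that of counting error, as did 69.9% of detected genes. The median CV was 18.6% for the 52 genes and 10.1% for detected genes, and 22 of 52 exceeded 20%, against 19.9% of detected genes. By TPM, no member had a library standing apart from the other 5 by Dixon's criterion. This criterion compares an extreme value with its nearest neighbour, so it cannot show 2 libraries that are low together. The largest gap was that of tacc in set A replicate 1, at 0.584 of the range. The TPM of tacc depends on its assigned length, and the criterion was not applied to CPM. With TMM factors tacc had 159.4 CPM in set A replicate 1 and between 148.5 and 152.1 CPM in the other libraries.

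**Figure D3:**
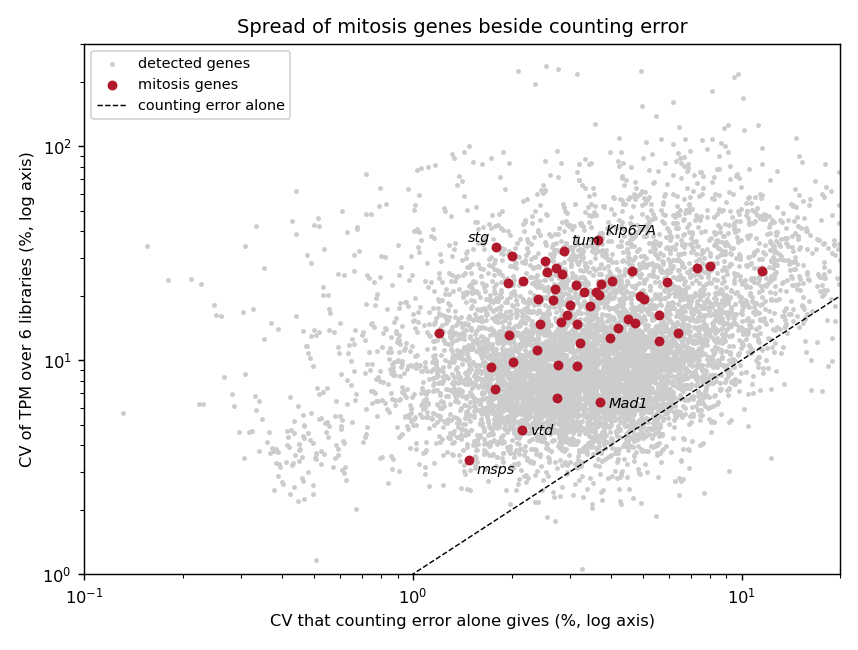
CV of TPM over the 6 libraries (log axis) against the CV that counting error alone gives (log axis), for the 52 mitosis genes in red and the detected genes in grey; the dashed line marks equality. Most red points lie between 10% and 36.3%, with msps, vtd, Mad1 and SMC3 below 7% and all 52 above the line.

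Much of the spread came from the libraries with low levels. Without set A replicate 1 and set B replicate 2, a choice made after seeing the data, the median CV of the 52 genes was 6.98%, and that of detected genes was 7.49%. These libraries were the 2 lowest for most of the 52 genes but for 21.8% of detected genes. A larger drop for the 52 genes therefore follows from the choice. Leaving out only set A replicate 1 gave 14.7% and only set B replicate 2 gave 15.9%. These were also the libraries with the most RNA of ring gland genes. The 5 steroid synthesis genes spok, phm, sad, nvd and dib, each detected in all 6 libraries, summed to 1477, 2705 and 1656 TPM in set B replicates 1, 2 and 3 and to 2881, 1005 and 916 TPM in those of set A. The lowest ring gland sum was in set A replicate 3, where the TPM of the mitosis genes was highest, a rank that was lost relative to hemocyte markers. The crystal cell genes PPO1 and PPO2 summed to 13603, 9624 and 12498 TPM in set B and to 9597, 15598 and 17223 TPM in set A, and so were also lowest in the libraries low in mitosis genes. The part of ring gland RNA or of cell composition in the level of the mitosis genes was not tested. The hemocyte markers He, srp and Pvr were not lowest in those libraries together, their mean deviation being -0.09, -0.08 and -0.10 in set B and 0.10, -0.01 and 0.18 in set A. Relative to these 3 markers, a scale chosen after seeing the data, the median deviation of the mitosis genes was 0.26, -0.21 and 0.23 in set B replicates 1, 2 and 3 and -0.41, 0.07 and 0.06 in those of set A. The 2 lowest libraries were then the same, but set B replicate 1 was the highest, and set A replicate 3 was below set B replicates 1 and 3 and set A replicate 2. The plasmatocyte genes Hml, Pxn, NimC1 and eater deviated by between -0.13 and 0.21 and the progenitor genes Tep4 and Ance by between -0.31 and 0.20, with neither lowest in those libraries together. Set B replicate 1, which held neuroblast transcripts, was second to set A replicate 3 in the summed TPM of mitosis genes, and without it the median CV was 19.1%. The part of neuroblast RNA in that sum was not tested. The CV cannot show it, since it changed most with the libraries low in mitosis genes.

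**Figure D4:**
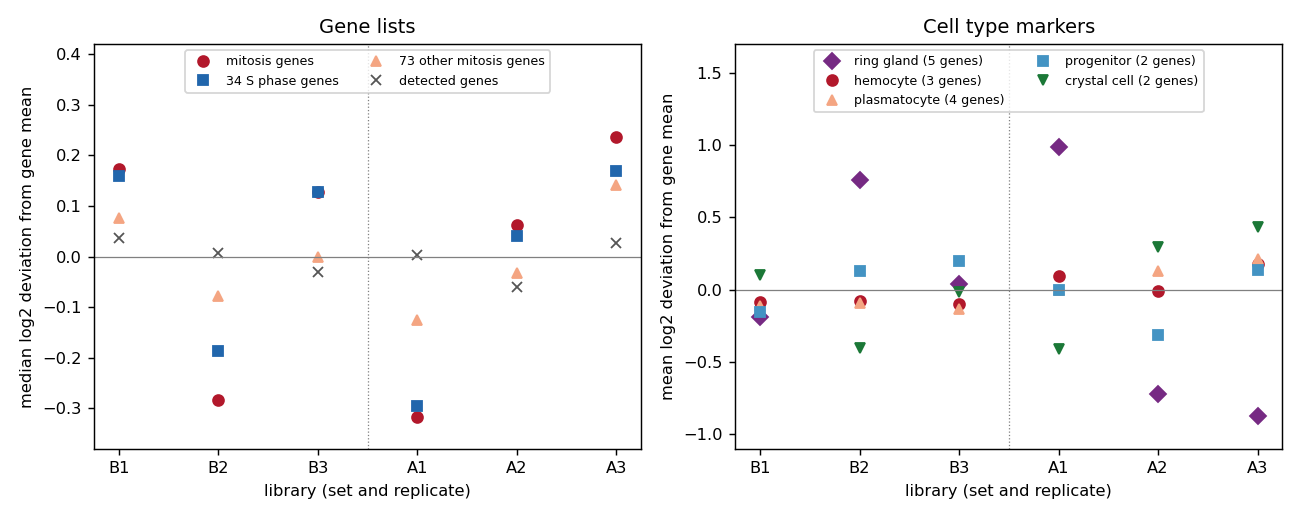
Left, median log2 deviation from the gene means in each library for the 52 mitosis genes, 34 S phase genes, 73 other mitosis genes and 7371 detected genes; right, mean log2 deviation of cell type markers in the same libraries, with set B left of set A (B2 is set B replicate 2 and A1 set A replicate 1). Mitosis and S phase genes are lowest in B2 and A1, where ring gland markers are highest, while the hemocyte markers stay between -0.10 and 0.18.

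Within libraries, pairs of genes of the same role gave ratios about as variable as pairs from different roles. Of 98 pairs in the same role, 51 had a ratio less variable than either gene, and of 1228 pairs from different roles 621 did, with a median CV of the ratio of 12.7% and 13.4%. The difference between these shares was not tested. Pairs named after their values were seen show the range. The ratio of polo to CycB was between 1.61 and 1.79, a CV of 3.81%, against 30.7% and 29.0% for the genes, and that of aurA to aurB, from different roles, between 0.308 and 0.3503. At the other end, the ratio of tacc to Klp67A ran from 3.73 to 11.3, a CV of 54.4%, by TPM, which for tacc depends on its assigned length. The ratio of CycA to CycB was 2.09 in set B replicate 2 and 2.15 in set A replicate 1, against 1.23 to 1.42 in the other 4.

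Other genes of division were examined by lists drawn up from general knowledge. Earlier results of these data were known by then, so the lists are not independent of the data. All 34 S phase genes passed the detection limit. geminin, the licensing inhibitor, was the highest at 109 ± 15.7 TPM, and the origin recognition gene lat (also Orc3) the lowest at 4.35 ± 0.668 TPM. Their median deviation was 0.16, -0.19 and 0.13 in set B and -0.30, 0.04 and 0.17 in set A, close in shape to that of the mitosis genes. The 2 lowest libraries were set A replicate 1 and set B replicate 2 for 27 of the 34. Their median CV was 15.8%, and none exceeded 25%. Of the 52 mitosis genes 12 exceeded it, or 23.1%, against 14.5% of detected genes and 8 of 73 other mitosis genes. Whether the lists differ in spread was not tested.

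All 73 further mitosis genes passed it too, with Rho1, the GTPase that drives furrow contraction and many other actin processes, the highest at 403 ± 50.6 TPM. The lowest was twe, a Cdc25 gene known from meiosis, at 3.74 ± 0.631 TPM. The pattern was weaker in this broader list, with a median deviation of -0.08 in set B replicate 2 and -0.12 in set A replicate 1, a median CV of 10.4%, and 35 of 73 genes lowest in both libraries.

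The design allows 1 test, of set B over set A, which asks whether these genes differ between experimenters. Experimenter and any batch cannot be told apart. With edgeR's quasi-likelihood test and Benjamini-Hochberg adjustment over the 8491 genes tested, 0 of the 52 genes had an adjusted p under 0.05, as did 0 of all genes tested, and the called share was 0%. The smallest edgeR adjusted p among the members was 0.9997. At an unadjusted edgeR p under 0.05 there were also 0 members, against 4.16% of all genes tested, and DESeq2 called 0 members, against 0.261% of its genes. The log2 change ran from -0.15 (SE 0.16) for Sse to 0.13 (SE 0.16) for cal1, both named after their values were seen. Sse averaged 6.06 ± 0.403 TPM in set B and 6.63 ± 1.19 TPM in set A, and cal1 7.90 ± 1.47 TPM in set B and 7.11 ± 0.901 TPM in set A (SD, n = 3 each). The members' median log2 change was -0.0029, against -0.0045 over all genes tested, with 22 genes positive and 30 negative. The precision differed widely, with standard errors from 0.059 for vtd to 0.44 for Klp67A, so a change of a given size was far less detectable for the genes that varied most. The 3 values of a set lay all above or all below those of the other set for 0 of the 52 genes, against 4.53% of genes tested with set B above and 1.58% with set B below.

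The direction of this comparison depended on which library was present, since each set held a library low in mitosis genes. The median log2 change was -0.18 without set A replicate 1 and 0.14 without set B replicate 2, with 47 of 52 genes negative in the first case and 49 of 52 positive in the second. Over all genes tested, the median was 0.0042 in the first case and 0.0039 in the second. The members share libraries, so these counts of genes largely restate the shift of the library left out. In both fits edgeR called 0 members. S phase genes had 0 of 34 and the other mitosis genes 0 of 73 called by edgeR at an adjusted p under 0.05, with 0 in either list at an unadjusted p under 0.05.

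**Figure D5:**
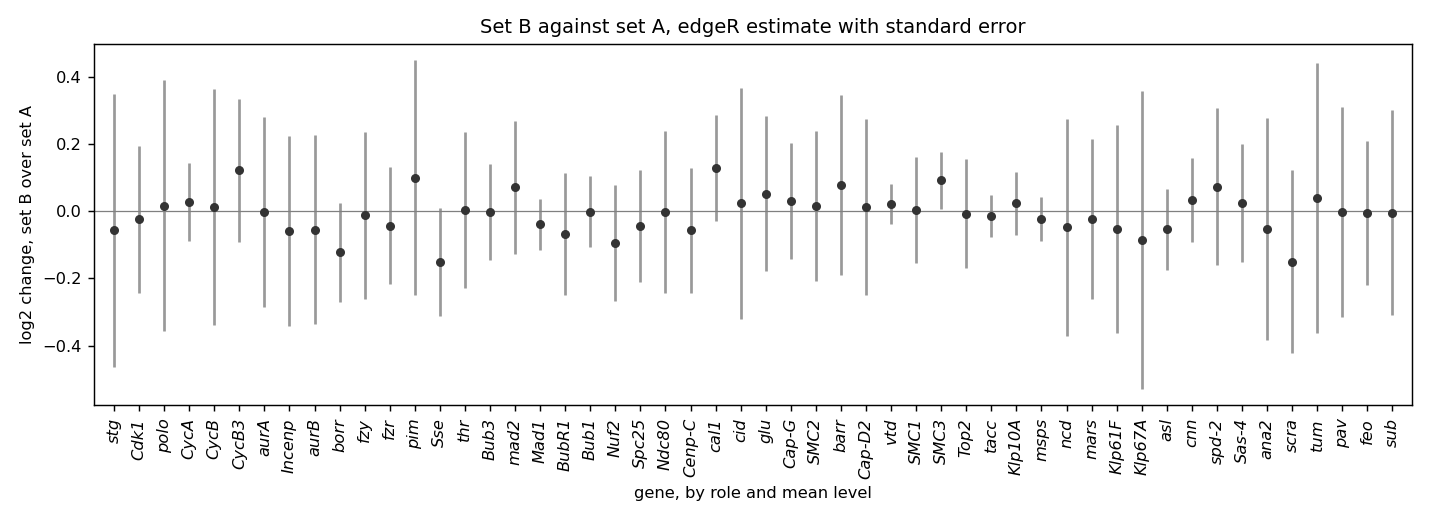
log2 change of each of the 52 genes in set B over set A as estimated by edgeR, with bars of 1 standard error, in the order of roles and mean level. The estimates lie between -0.15 and 0.13 and the bars are longest for Klp67A, stg and tum, the genes with the largest spread between libraries.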

How the data were processed

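The authors deposited 1 gene-level RSEM table per library. Per the submitters' processing notes, CASAVA 1.8.2, Trimmomatic 0.35, STAR 2.7.1a, RSEM 1.2.28 and the build BDGP6 were used; the annotation and any use of strand in counting are not given in the sources used here. Per the labels' protocols, libraries were made with a stranded kit from polyadenylated RNA. Expected counts, estimated reads or fragments per gene, were deposited by the authors without normalization and were rounded to whole numbers for the tests. TPM was deposited by the authors and corrects for effective transcript length. Positions are those of Ensembl release 115 on BDGP6.54, counted from 1. Overlap with exons on the opposite strand, found for 18 of the 52 genes, leaves part of their counts uncertain. They are Bub3, cal1, ncd, mars, msps, Klp61F, Klp67A, tacc, fzy, Mad1, mad2, Nuf2, glu, Cap-D2, aurA, ana2, sub and thr. RSEM's posterior SD of the count was above 0 for 2 members, and at most 0.872% of the count.

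The change in set B over set A was tested with edgeR 4.0.16 in R 4.3.3 (filterByExpr, TMM, quasi-likelihood test, Benjamini-Hochberg adjustment over all genes tested, threshold 0.05), after a test on simulated data, with DESeq2 1.42.0 as an alternative. Standard errors come from the estimate and its F statistic. Detection means a TPM of at least 1 in all libraries; the CV is SD over mean of TPM. Counting error is 1 over the square root of the mean count, and covers counting only. Members and lists were chosen with earlier results of these data known. The genes given per library are the highest and lowest of each role and those with the highest and lowest CV; further genes with values in all libraries were added as the text describes them. No member met the rule for naming by the test between sets. Libraries of the same set were counted separately, since no pair agreed within sampling noise. Promoter and protein sequences were not analysed here. Tables and figures were made in Python 3.11.15 (pandas 2.3.3, numpy 2.4.6, matplotlib 3.10.9).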

Additional observations from a re-analysis of the deposited data

How the results depend on the processing

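For the 52 mitosis genes, edgeR called 0 between sets with RLE normalization, without the low-count filter, and without each library in turn, and DESeq2 also called 0. Over all genes, DESeq2 called 22 and every edgeR fit 0; the cause was not tested. Across fits that left out 1 library, the members' median log2 change ran from -0.18 to 0.14, and that of cal1 ran from -0.0079 without set B replicate 1 to 0.25. The number of members whose sets did not overlap ran from 0 to 2, with SMC3 apart without set B replicate 2, Sse without set A replicate 1, and Klp10A and msps without set A replicate 3. The share of all genes tested that did not overlap was not computed with 1 library left out, so these counts single out no gene. The members' median CV ran from 14.7% to 20.8% with 1 library left out and was 6.98% without both set A replicate 1 and set B replicate 2. With the replicate number as a block, edgeR called 0 genes and the members' median was -0.0020. The main fit did not pair the libraries by number. Same-numbered deviations correlated at -0.18, -0.30 and 0.37, and not every library correlated best with its own number. These correlations cannot exclude that same-numbered libraries were handled together, since the libraries also differ in RNA of other tissues. Depth limits cid most, at 48 counts in its lowest library. The median deviation kept its sign in each library with a pseudocount of 0.1, with CPM, with a TPM minimum of 5 and relative to He, srp and Pvr, but on the last scale set A replicate 3 had 0.06, against 0.24 by TPM, and was no longer the highest. The level of tacc in set A replicate 1 over that in set B replicate 1 was 1.16 by TPM, 0.999 by CPM and 1.05 with TMM factors, alternatives chosen after seeing the data.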

Other observations

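Among the further mitosis genes, 13 of 73 were highest in set A replicate 1, a smaller share than the 26.1% of detected genes that were highest there, so the count shows nothing particular to the list. Values follow for some of the 13, named after their values were seen. Rho1 had 393, 458 and 357 TPM in set B replicates 1, 2 and 3 and 471, 351 and 386 TPM in those of set A. The myosin heavy chain gene zip had 239.6, 337 and 246 TPM in set B and 367, 236 and 259 TPM in set A, and the myosin light chain gene sqh had 185, 258 and 183 TPM in set B and 277, 166 and 174 TPM in set A. The septin genes pnut, Septin1 and Septin2 were also highest there, pnut at 150.3 TPM. All of these are used in many non-dividing cells, but whether that bears on their levels was not tested. The rest of the 13 are not described here. scra and tum, which act in the same furrow, had their 2 lowest values in set A replicate 1 and set B replicate 2.

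The length that RSEM assigns to a gene is weighted by the abundance of its transcripts, so it moves when isoforms change. For 46 of the 52 mitosis genes it varied by at most 2% between libraries. Of the 52, 25 have 1 annotated transcript, so their length could not move. Among the 27 with several transcripts, 6 varied by more than 2%. It moved most for tacc, which has 13 annotated transcripts in the tables, with 2634, 2463 and 2659 bases in set B replicates 1, 2 and 3 and 2293, 2536 and 2586 bases in those of set A. Because TPM divides by this length, a shorter length raises the TPM of tacc by construction, and length and TPM are not independent. For cnn, with 12 transcripts, the length was 4544 bases in set A replicate 1 and between 4396 and 4451 bases in the others.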
